A study of Danio rerio with 6 samples.

Results

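The proteasome genes were taken as all rows of the count table whose gene symbol starts with psm, a letter from a to g and a number, with case ignored and without PSMC3IP. This gave 51 of 25640 genes. Of these, 50 encode subunits, activators, an inhibitor or assembly chaperones of the proteasome. The other, PSME3IP1, encodes a protein that binds an activator and is given apart. The values come from RNA sequencing of polyadenylated RNA from dissected livers of adult zebrafish (Danio rerio), with 3 libraries from fish of the transgenic line lf:Yap and 3 from wild-type (WT) fish. The sources used here do not give the promoter of the transgene, the form of Yap it encodes, or the sex and age of the fish beyond adult. They also do not say whether a library is 1 fish, so the p-values measure the spread between these libraries, which may in part be technical. The lf:Yap libraries held 76038709 to 85208212 gene counts and the WT libraries 71581315 to 87543545.

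The labels were checked on yap1 itself. YAP1 (ENSDARG00000068401) stood at 442.9, 386.2 and 291.4 CPM (read counts scaled to library size) in lf:Yap livers, against 22.6, 27.4 and 20.4 CPM in WT livers. Reads of a transgene with zebrafish sequence would count at the same gene. The 16 hepatocyte markers summed to between 145000 and 148400 CPM in lf:Yap and between 112000 and 132200 CPM in WT livers. Markers of exocrine pancreas, a neighbouring organ, summed to 11690, 249 and 16220 CPM in the lf:Yap libraries, against 14810, 701.1 and 1485 CPM in the WT libraries. WT replicate 1 was thus the high WT library, and lf:Yap replicates 1 and 3 were high as well. The part of this spread in the results was not tested.

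The proteasome degrades proteins that carry ubiquitin chains. Its barrel-shaped core is built from rings of alpha subunits, which gate the entrance, and rings of beta subunits, of which PSMB5, PSMB6 and PSMB7 carry the cutting sites. In immune cells and under interferon these are replaced by PSMB8, PSMB9 and PSMB10, which changes the peptides made and feeds antigen presentation. A regulatory particle of ATPase (PSMC) and non-ATPase (PSMD) subunits caps the core, where it binds, unfolds and feeds in substrates. The PSME proteins are other caps, PSMF1 is known as an inhibitor of the core, and the PSMG proteins are chaperones of its assembly. Yap, the coactivator restrained by the Hippo kinases, drives liver growth, and the series compares livers with and without its transgene.

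No proteasome gene passed the test over all genes. The immune beta subunits and their tested relatives lay lower in lf:Yap than in WT livers, and the other genes lay close to 0 on the scale of log2 fold changes. Of the 51 genes, 50 passed the filter on low counts. Of these 50, 0 passed at an adjusted p under 0.05 in either direction by edgeR's quasi-likelihood test, and 0 by DESeq2 or limma-voom. Over all 24674 tested genes edgeR called 0.665%, while DESeq2 called 4.18% and limma-voom 0.754% of the genes they tested. By edgeR without adjustment, 5 of the 50 had a p under 0.05 and were lower, and 0 were higher, against 5.2% lower and 6.12% higher over all tested genes. The 5 were all tested members of the immune group: PSMB8, PSMB9, PSMB10, psmb12 and psmb13a. The median log2 fold change of lf:Yap over WT was -0.09 over the 50 genes and -0.03 over all tested genes. The direction of the first median turned with the libraries used, at 0.12 in the fit that left out WT replicate 3, and at 0.02 when lf:Yap replicate 3 was left out instead. Of the 44 tested genes outside the immune group other than PSME3IP1, 33 changed direction in at least 1 of the 6 fits that left out 1 library, against 0 of the 5 immune and related genes. The 5 had larger differences than the 44, and a small difference turns more easily, so this contrast is no separate support. The share over all tested genes was not counted. The groups did not overlap, and lf:Yap was lower, for 4 of the 50 genes, against 8.78% of all tested genes, a share close to that of the 50. For 0 of the 50 did the groups part in the other direction, against 8.84% of all tested genes.

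**Figure D1:**
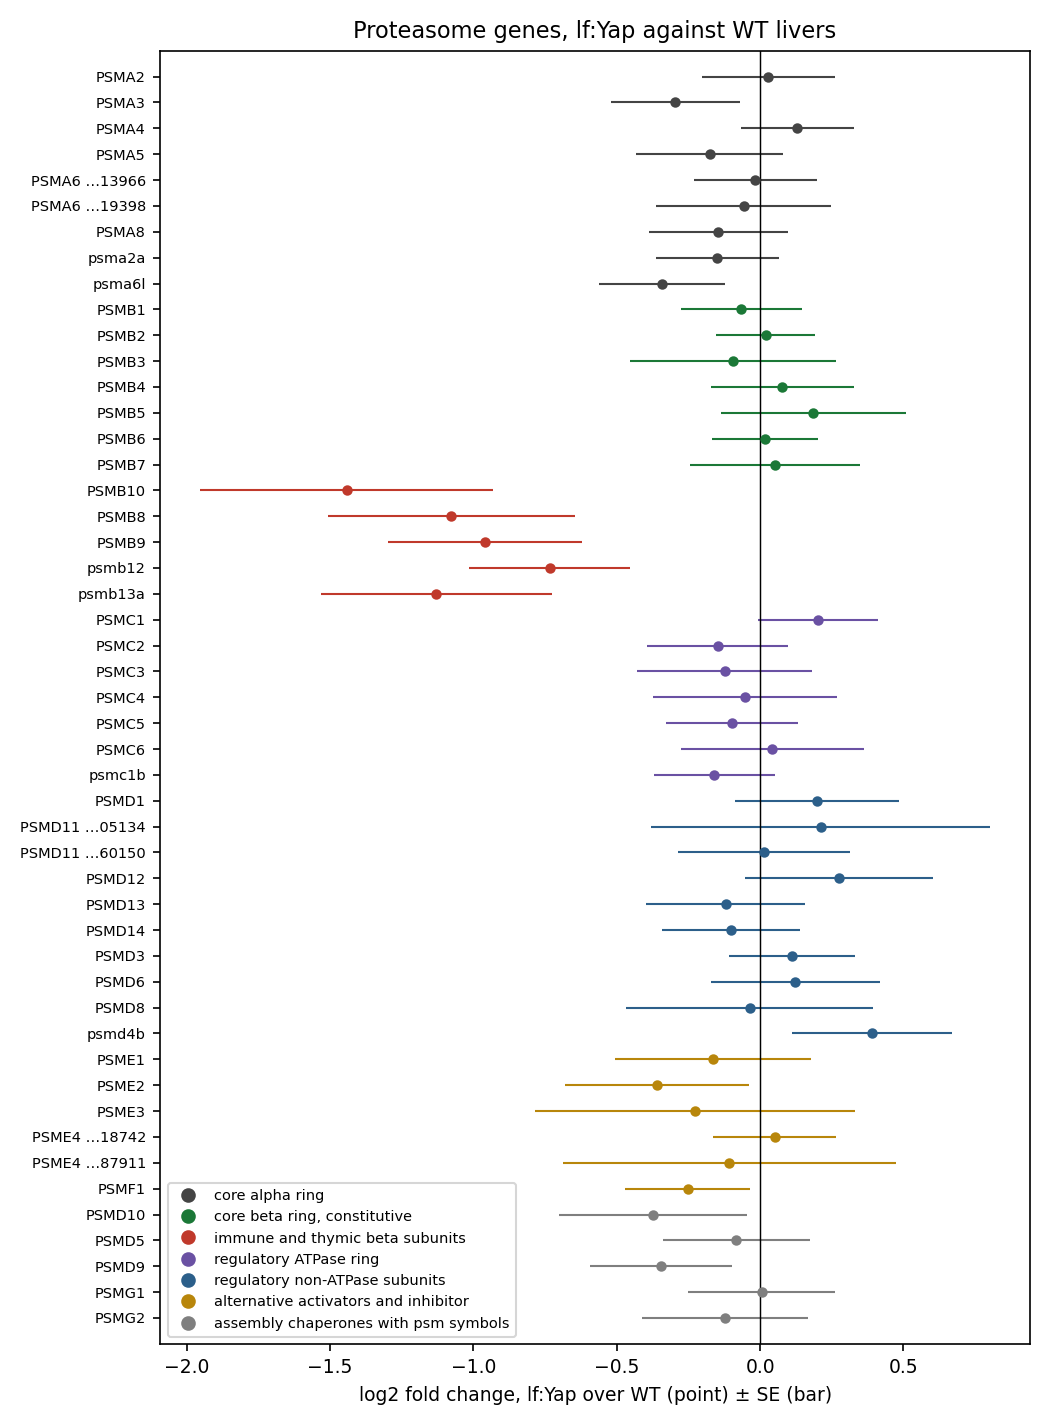
Log2 fold change of lf:Yap over WT (horizontal axis, point) with its standard error (bar) for the 49 tested proteasome genes other than PSME3IP1, coloured by role. Genes that share a symbol carry the last digits of their identifier. The 5 immune and related beta subunits lie between -1.44 and -0.73, and the other 44 genes between -0.37 and 0.39.

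PSMB8 (ENSDARG00000001303) encodes the immune form of the chymotrypsin-like site of the core. Its values were 18.1, 24.9 and 21.2 CPM in the lf:Yap libraries, against 76.4, 36.4 and 22.9 CPM in the WT libraries. The groups overlapped, because lf:Yap replicate 2 lay above WT replicate 3, and WT replicate 1 stood far above the rest. The mean was 21.4 ± 3.39 CPM in lf:Yap and 45.2 ± 27.8 CPM in WT livers (SD, n = 3 each). The log2 fold change was -1.08 ± 0.43 (SE), with an unadjusted p of 0.0396 and an adjusted p of 0.408 by edgeR.

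PSMB9 (ENSDARG00000000656), the immune counterpart of PSMB6, read 3.14, 4.6 and 4.23 CPM in the lf:Yap libraries, against 11.4, 6.53 and 5.36 CPM in the WT libraries. Every lf:Yap library lay below every WT library. Its log2 fold change was -0.96 ± 0.34 (SE; unadjusted p = 0.0243, adjusted p = 0.345, edgeR). PSMB10 (ENSDARG00000043781), the immune counterpart of PSMB7, read 2.53, 3.14 and 6.39 CPM in the lf:Yap libraries, against 18.4, 7.57 and 6.75 CPM in the WT libraries. The groups did not overlap, but lf:Yap replicate 3 lay just under WT replicate 3. With a log2 fold change of -1.44 ± 0.51 (SE; unadjusted p = 0.0252, adjusted p = 0.347, edgeR), PSMB10 had the largest difference among the proteasome genes tested. This is a 2.72-fold lower level in lf:Yap livers.

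The zebrafish genes psmb12 and psmb13a are annotated as relatives of the immune subunits, and RefSeq lists beta1t and beta2ta among their synonyms. psmb13a (ENSDARG00000001656) read 13.6, 18.3 and 16.3 CPM in the lf:Yap libraries, against 57.8, 28.3 and 19.4 CPM in the WT libraries. Its groups did not overlap (log2 fold change -1.13 ± 0.40, SE; adjusted p = 0.347, edgeR). psmb12 (ENSDARG00000031885) read 4, 4.88 and 3.15 CPM in the lf:Yap libraries, against 8.44, 6.29 and 5.28 CPM in the WT libraries. It too parted the groups, with the smallest difference of the 5 (log2 fold change -0.73 ± 0.28, SE; adjusted p = 0.386, edgeR). psmb11b (ENSDARG00000068086), a relative of the thymic subunit of mammals, had 9, 2 and 33 reads in the lf:Yap libraries and 1, 0 and 2 reads in the WT libraries. It did not pass the filter on low counts and was not in the main edgeR test. On these few reads, each lf:Yap library lay above each WT library in CPM, the other direction from the 5 tested genes.

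**Figure D2:**
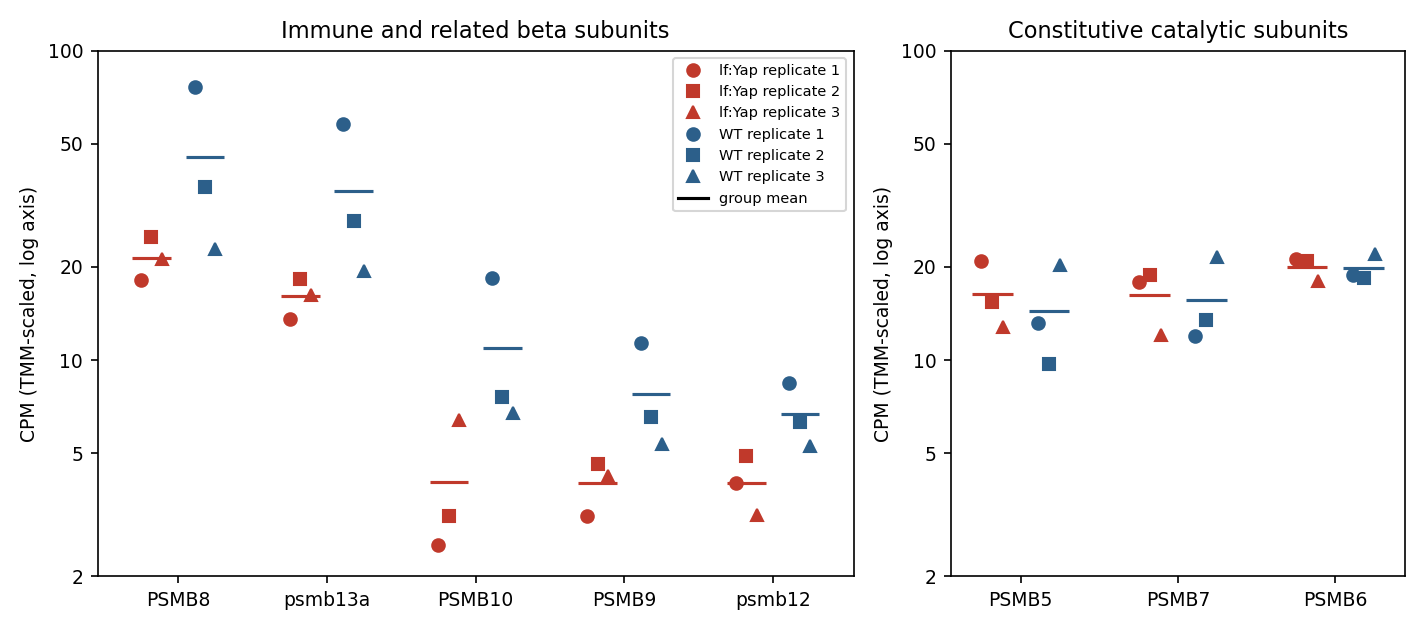
Level of each immune and related beta subunit (left) and of the 3 constitutive catalytic subunits (right) in CPM on a log axis, with 1 point per library and a line at the group mean (3 libraries each). WT replicate 1 is the highest library for all 5 immune and related genes, at 76.4 CPM for PSMB8, while the groups overlap for PSMB5, PSMB6 and PSMB7.

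Among WT libraries the order was the same for all 5 genes, with WT replicate 1 highest and WT replicate 3 lowest. Within lf:Yap, replicate 2 was highest for 4 of the 5 and replicate 1 lowest for 4. The size of the difference depended on WT replicate 1. In the fit that left it out, the 5 log2 fold changes lay at -0.46 for PSMB8, -0.82 for PSMB10, -0.56 for PSMB9, -0.51 for psmb12 and -0.56 for psmb13a, and 0 of the 5 had an unadjusted p under 0.05 (edgeR; 4.11% of all genes tested in that fit were lower at this level). Their median was -1.08 with all libraries and -0.56 without WT replicate 1. That count of 5 was also 0 when lf:Yap replicate 1 was left out. It was 1 on leaving out lf:Yap replicate 3, and 3 on leaving out either replicate 2. Each of the 5 genes stayed below 0 in all 6 fits that left out 1 library. For the 4 whose groups did not overlap, leaving out a library could hardly turn the direction, so this is no separate support.

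The immune genes were also set against their constitutive counterparts within each library, as a ratio of read counts. This removes differences in depth, and since gene lengths are not used, a ratio can be compared between libraries but not between pairs of genes. The ratio of PSMB8 to PSMB5 was 0.869, 1.61 and 1.67 in the lf:Yap libraries, against 5.79, 3.75 and 1.13 in the WT libraries. The groups overlapped, because WT replicate 3 lay below lf:Yap replicates 2 and 3. The ratio of PSMB9 to PSMB6 was 0.148, 0.221 and 0.234 in lf:Yap, against 0.605, 0.353 and 0.243 in WT livers, with no overlap. The ratio of PSMB10 to PSMB7 was 0.142, 0.167 and 0.531 in lf:Yap, against 1.55, 0.56 and 0.315 in WT livers, and lf:Yap replicate 3 lay within the WT range. Summed over the 3 immune and the 3 constitutive genes, the ratio averaged 0.578 ± 0.174 in lf:Yap and 1.39 ± 0.948 in WT livers (SD, n = 3 each). The WT mean was 0.88 without WT replicate 1.

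**Figure D3:**
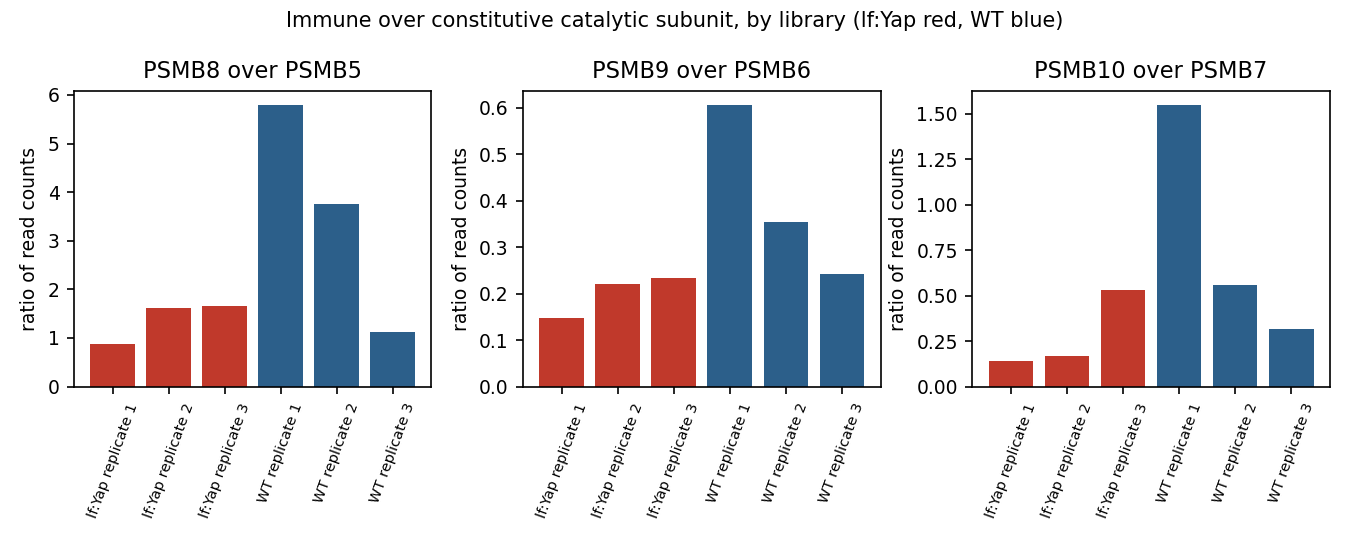
Ratio of the read counts of each immune catalytic subunit to those of its constitutive counterpart, with 1 bar per library (lf:Yap red, WT blue). WT replicate 1 has the highest bar in each panel, at 5.79, 0.605 and 1.55.

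In the RefSeq annotation of assembly GRCz12tu the genes psmb13a, psmb8a, psmb12 and psmb9a follow each other, next to the peptide transporter gene tap2a and the class I gene mhc1uba. The entries of psmb13a and psmb8a overlap there, as do those of psmb8a and psmb12, and the sources used here do not say how reads on shared sequence were counted. The count of psmb13a was 0.735 to 0.765 times that of PSMB8 in lf:Yap and 0.756 to 0.846 times in WT livers. With such overlap, reads of psmb13a, PSMB8 and psmb12 may not be independent, which was not tested. No ratio to psmb12 was taken. tap2a (ENSDARG00000036787), which pumps peptides into the endoplasmic reticulum, read 2.01, 4.09 and 4.38 CPM in lf:Yap, against 19.0, 6.68 and 3.13 CPM in WT livers. It had the same high library, WT replicate 1, but overlapping groups (log2 fold change -1.46 ± 0.65, SE; adjusted p = 0.47, edgeR). mhc1uba (ENSDARG00000075963) read 26, 3.51 and 27.5 CPM in lf:Yap, against 18.6, 9.24 and 5.46 CPM in WT livers. Its WT libraries had the same order as those of tap2a, but lf:Yap replicates 1 and 3 lay above all of them. hsd17b8 (ENSDARG00000001169), a steroid dehydrogenase gene of the same stretch, lay between 5.63 and 7.52 CPM in lf:Yap and between 5.99 and 7.30 CPM in WT livers. The tapasin genes of the stretch, whose products help load peptides onto class I molecules, were highest in WT replicate 1, with overlapping groups. tapbp.1 (ENSDARG00000079402) read 31.3, 18.8 and 38.3 CPM in lf:Yap, against 65.9, 30.4 and 18.7 CPM in WT livers, and tapbp.2 (ENSDARG00000045011) read 6.86, 8.47 and 9.77 CPM in lf:Yap, against 14.3, 7.55 and 4.85 CPM in WT livers. Their log2 fold changes were -0.38 ± 0.48 and -0.09 ± 0.40 (SE), and 0.28 and 0.45 without WT replicate 1. COL11A2 (ENSDARG00000012422), a collagen gene, had 8 to 23 reads in lf:Yap and 8 to 27 in WT libraries. These 6 neighbours are those of the stretch that matched the table by symbol.

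Markers of immune cells and of interferon signalling were read beside these genes, because leukocytes carry the immune subunits. For the counts by direction below, 13123 of all 24674 tested genes lay below 0. The 9 markers of antigen presenting cells summed to 206.8, 179.0 and 406.0 CPM in the lf:Yap libraries, against 515.3, 215.2 and 169.1 CPM in the WT libraries. WT replicate 1 and lf:Yap replicate 3 were high, and 6 of the 9 had a negative log2 fold change. Their median was -0.11, and 0.39 in the fit without WT replicate 1. In the interferon response list 25 of 26 genes were tested, the summed level was 522.3 to 639.8 CPM in lf:Yap and 486.8 to 982.1 CPM in WT livers, and 11 of the 25 lay below 0. Its highest library was again WT replicate 1. In the macrophage list 14 of 17 markers lay below 0, with a median of -0.38 that was -0.01 without WT replicate 1. These markers summed to 322.7, 436.7 and 412.1 CPM in lf:Yap, against 480.4, 555.8 and 453.9 CPM in WT livers. WT replicate 2 was the highest library here. The T and NK cell markers summed to 7.93 to 21.3 CPM in lf:Yap and 7.95 to 18.3 CPM in WT livers, with 8 of 14 below 0. For B cell markers the sums were 24.6 to 50.6 CPM in lf:Yap and 21.9 to 39.3 CPM in WT livers, with 5 of 9 tested below 0. Neutrophil markers summed to 51.8 to 92.2 CPM in lf:Yap and 38.4 to 63.9 CPM in WT livers, with 2 of 7 below 0. The neutrophil median was 0.72, but -0.85 in the fit without lf:Yap replicate 3 and -0.04 by limma-voom. Of the listed markers with a row in the count table, none for antigen presenting cells, macrophages or neutrophils had 0 reads in any library. In the same count, 1 T and NK cell marker and 1 B cell marker did. Listed markers without a row were not counted. The part of these cells and of interferon in the difference of the immune subunits was not tested. In bulk liver, fewer cells of a type and less RNA per cell cannot be told apart.

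In the constitutive beta ring no gene passed, and the groups overlapped for each. Over all tested genes the groups lay apart for 8.78% in the lower and 8.84% in the higher direction. All 7 genes were tested, with log2 fold changes from -0.10 for PSMB3 to 0.19 for PSMB5, standard errors of 0.17 to 0.36 and unadjusted p-values of at least 0.584 (edgeR). PSMB5 (ENSDARG00000075445), the chymotrypsin-like site, read 20.9, 15.5 and 12.8 CPM in lf:Yap, against 13.2, 9.71 and 20.2 CPM in WT livers. PSMB6 (ENSDARG00000002240), the caspase-like site, read 21.2, 20.8 and 18.1 CPM in lf:Yap, against 18.8, 18.5 and 22.1 CPM in WT livers. PSMB7 (ENSDARG00000037962), the trypsin-like site, read 17.8, 18.8 and 12 CPM in lf:Yap, against 11.9, 13.5 and 21.5 CPM in WT livers. All 3 pairs of groups overlapped, and the log2 fold changes of 0.19 ± 0.32, 0.02 ± 0.18 and 0.05 ± 0.30 (SE) were smaller than their errors. The structural gene PSMB2 (ENSDARG00000031511) was among the steadiest, with 16.1 to 17.4 CPM in lf:Yap and 15.5 to 17.0 CPM in WT livers.

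The alpha ring genes reached further below 0 than those of the constitutive beta ring. Of 9 genes, 7 lay below 0 and 2 above. The median was -0.15 (0.06 without WT replicate 3) and the range -0.34 to 0.13. At an unadjusted p under 0.05 (edgeR) there were 0, against 5.2% lower and 6.12% higher over all tested genes. For so few genes a count of 0 says little. The gene with the largest difference was psma6l (ENSDARG00000043899), an extra copy of the PSMA6 type, with 5.10, 7.09 and 5.71 CPM in lf:Yap, against 8.26, 7.49 and 6.96 CPM in WT livers. The groups overlapped narrowly (log2 fold change -0.34 ± 0.22, SE; adjusted p = 0.642, edgeR). The genes with the symbol PSMA6 lay at -0.02 ± 0.21 (ENSDARG00000013966) and -0.06 ± 0.30 (ENSDARG00000019398), so the copies did not part the groups. The paired copies of the PSMA2 type lay at 0.03 ± 0.23 for PSMA2 (ENSDARG00000035679) and -0.15 ± 0.21 for psma2a (ENSDARG00000040121). Reads may be split between near-identical copies, which makes each copy's own level uncertain. PSMA8 (ENSDARG00000010965), for which RefSeq lists psma7 as a synonym, read 35.9, 34.4 and 30.9 CPM in lf:Yap, against 27.3, 37.1 and 47.6 CPM in WT livers.

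In the regulatory particle, the ATPase ring and the non-ATPase subunits also overlapped between the groups. The groups lay apart for 8.78% of all tested genes in the lower and 8.84% in the higher direction. The 7 ATPase genes had log2 fold changes from -0.16 to 0.20 with a median of -0.10, and of 0.20 without WT replicate 3. PSMC1 (ENSDARG00000030537) differed most, with 14.9, 13.9 and 11.09 CPM in lf:Yap, against 10.5, 10.9 and 13.2 CPM in WT livers (0.20 ± 0.21, SE; adjusted p = 0.808, edgeR), while its copy psmc1b (ENSDARG00000043561) lay at -0.16 ± 0.21. The 10 non-ATPase genes ranged from -0.12 to 0.39 with a median of 0.12, and 7 lay above 0. Leaving out WT replicate 3 moved this median to 0.36, while it fell below 0 when lf:Yap replicate 1 (-0.10) or WT replicate 2 (-0.08) was left out. psmd4b (ENSDARG00000023279), of the type that binds ubiquitin chains, differed most. It read 27.0, 18.4 and 18.9 CPM in lf:Yap, against 18.4, 11.3 and 19.3 CPM in WT livers, with overlapping groups (0.39 ± 0.28, SE; adjusted p = 0.689, edgeR). PSMD14 (ENSDARG00000063100), which cuts ubiquitin off substrates, lay at -0.10 ± 0.24. The largest spread was that of a PSMD11 gene (ENSDARG00000005134), whose product is a scaffold of the particle, with 14.0, 6.23 and 3.80 CPM in lf:Yap, against 5.62, 3.43 and 11.7 CPM in WT livers. The other PSMD11 gene (ENSDARG00000060150) was steadier, at 9.87 to 13.2 CPM in lf:Yap and 7.46 to 15.2 CPM in WT livers. Human PSMD11 is known from stem cells as a subunit that raises proteasome assembly.

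The activators of the core differed in which libraries were high. PSME1 and PSME2 form the interferon-inducible cap, and both were highest in WT replicate 1. PSME1 (ENSDARG00000002165) read 15.2, 16.4 and 17.7 CPM in lf:Yap, against 28.3, 15.7 and 11.2 CPM in WT livers, and PSME2 (ENSDARG00000033144) read 14.7, 14.3 and 15.9 CPM in lf:Yap, against 29.4, 14.7 and 13.6 CPM in WT livers. Their log2 fold changes were -0.16 ± 0.34 and -0.36 ± 0.32 (SE), and 0.30 and 0.10 without WT replicate 1, so the direction turned with that library. PSME3 (ENSDARG00000012234), the nuclear cap that interferon does not induce, read 15.1, 9.54 and 6.33 CPM in lf:Yap, against 9.67, 4.86 and 21.7 CPM in WT livers. It was highest in WT replicate 3 and lf:Yap replicate 1, like the regulatory particle. A PSME4 gene (ENSDARG00000018742), for a large cap that works without ubiquitin, lay at 0.05 ± 0.22. The other PSME4 gene (ENSDARG00000087911) read 0.767, 1.58 and 2.95 CPM in lf:Yap, against 1.89, 0.960 and 2.86 CPM in WT livers (-0.11 ± 0.58, SE). It was highest in lf:Yap replicate 3 and lowest in lf:Yap replicate 1. The inhibitor gene PSMF1 (ENSDARG00000022652) read 6.94, 7.12 and 7.57 CPM in lf:Yap, against 9.44, 9.59 and 6.74 CPM in WT livers (-0.25 ± 0.22, SE; adjusted p = 0.756, edgeR). PSME3IP1 (ENSDARG00000041631), which binds the PSME3 cap, lay at 0.14 ± 0.25.

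The 5 assembly chaperone genes had log2 fold changes from -0.37 to 0.01. At an unadjusted p under 0.05 (edgeR) there were 0, against 5.2% lower and 6.12% higher over all tested genes. PSMD10 (ENSDARG00000015628), which encodes gankyrin, a chaperone of the regulatory particle known as an oncoprotein in human liver cancer, differed most. It read 2.73, 1.42 and 2.2 CPM in lf:Yap, against 3.09, 2.22 and 2.91 CPM in WT livers, and the groups overlapped (-0.37 ± 0.33, SE; adjusted p = 0.763, edgeR). PSMD9 (ENSDARG00000006300) lay at -0.35 ± 0.25 and PSMD5 (ENSDARG00000059046) at -0.08 ± 0.26, both chaperones of the ATPase ring. PSMG1 (ENSDARG00000040620) and PSMG2 (ENSDARG00000035987), partners in building the alpha ring, lay at 0.01 ± 0.26 and -0.12 ± 0.29.

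Outside the immune group, the subunits varied together between libraries within each genotype. Of the 44 tested genes other than the immune group and PSME3IP1, lf:Yap replicate 1 was the highest lf:Yap library for 32 (72.7%), against 33.2% of all tested genes. WT replicate 3 was the highest WT library for 35 (79.5%), against 36.1% of all tested genes. For the non-ATPase subunits this held for 10 of 10 genes in each genotype. WT replicate 2 was the lowest WT library for 30 of the 44 and lf:Yap replicate 3 the lowest lf:Yap library for 27. The summed level of the non-ATPase subunits was 207.8, 151.7 and 134.8 CPM in the lf:Yap libraries, against 132.3, 119.5 and 201.0 CPM in the WT libraries. That of the 7 ATPase genes was 129.5, 111.5 and 95.0 CPM in lf:Yap, against 107.4, 91.9 and 151.8 CPM in WT livers. The immune group had another order, with WT replicate 1 highest for 5 of 5 genes. The genes share libraries and scaling, so these counts are a description.

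**Figure D4:**
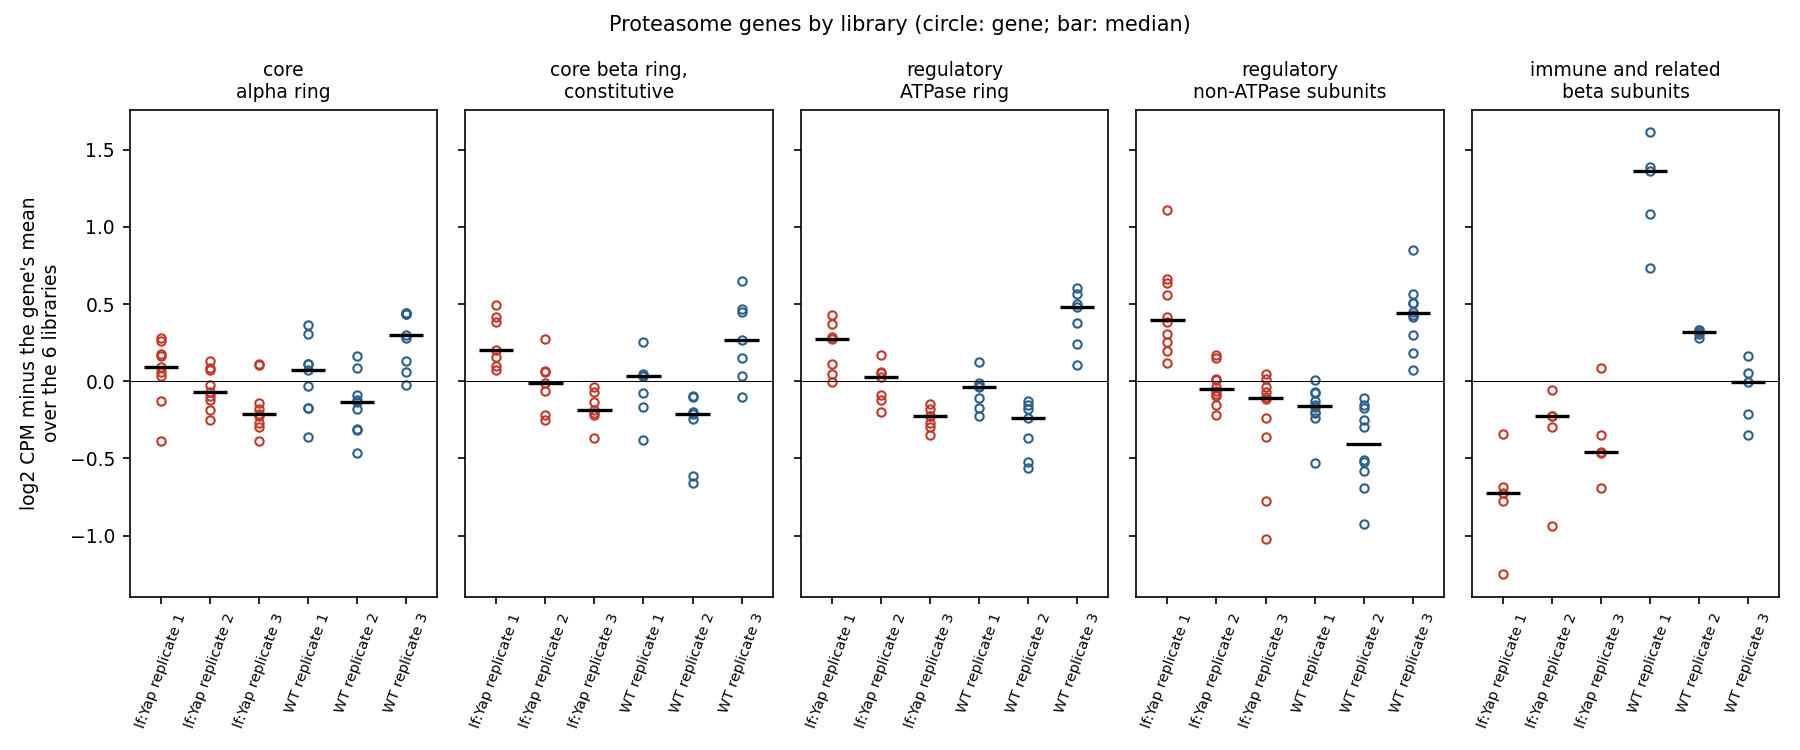
Log2 CPM of each tested gene minus its mean over the 6 libraries (vertical axis), by library and by role, with a bar at the median of the role (lf:Yap red, WT blue). The core and regulatory genes are mostly highest in lf:Yap replicate 1 and WT replicate 3, and the 5 immune and related genes in WT replicate 1.

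Other genes of the ubiquitin and proteasome system were read from lists. Of 16 proteasome-associated genes without a psm symbol, 1 rose and 0 fell by edgeR, against 0.665% of all tested genes called in either direction. It was zfand5b (ENSDARG00000002271), of a zinc finger family known in mammals to stimulate the proteasome, at 31.2, 51.5 and 30.2 CPM in lf:Yap, against 10.2, 8.51 and 8.02 CPM in WT livers (log2 fold change 2.08 ± 0.28, SE; adjusted p = 0.0274, edgeR). Its copy zfand5a (ENSDARG00000018898) lay in the other direction, with overlapping groups. It read 34.5, 58.1 and 38.1 CPM in lf:Yap, against 51.4, 74.5 and 44.75 CPM in WT livers (-0.385 ± 0.292, SE, adjusted p = 0.711, edgeR). DESeq2 and limma-voom each called 2 genes of this list higher and 0 lower, zfand5b and AKIRIN1. Over all genes they tested, DESeq2 called 4.18% and limma-voom 0.754%. AKIRIN1 (ENSDARG00000039969), a relative of the gene for AKIRIN2, which in human cells brings proteasomes into the nucleus, read 37.5, 26.95 and 27.9 CPM in lf:Yap, against 12.1, 7.75 and 11.13 CPM in WT livers. Its groups lay apart (1.57 ± 0.25, SE), and the adjusted p was 0.0517 by edgeR, 8.95e-06 by DESeq2, 0.0458 by limma-voom and 0.0382 by edgeR with a filter of 5 CPM in 3 libraries. Without 1 library it lay between 0.0915 and 0.175. AKIRIN2 (ENSDARG00000058729) itself lay at 0.09 ± 0.19 (log2, SE), with overlapping groups. The call of zfand5b was lost on leaving out any 1 library, with adjusted p-values from 0.0549 to 0.161, while its log2 fold change stayed between 1.79 and 2.21. Nrf1, encoded by the NFE2L1 genes, is the factor that raises subunit genes when the proteasome is blocked, and Nrf2 is its relative in oxidative stress. Of 14 genes around these factors, 0 rose and 1 fell by edgeR, against 0.665% of all tested genes called. Without adjustment (p under 0.05, edgeR), 2 were lower and 0 higher, against 5.2% lower and 6.12% higher over all tested genes. These were nfe2l2b and NQO1 (ENSDARG00000010250), the latter at -1.39 ± 0.45 (log2, SE). HMOX1 (ENSDARG00000027529) lay at 1.41 ± 0.72 with overlapping groups, and at 0.342 without lf:Yap replicate 1. The groups did not overlap for 3 genes that were lower and 1 that was higher, against 8.78% and 8.84% of all tested genes. The higher one was GCLM (ENSDARG00000018953), at 0.555 ± 0.246 (log2, SE). NFE2L1 (ENSDARG00000030616) lay at -0.71 ± 0.34, with groups that did not overlap, and nfe2l1b (ENSDARG00000076533) at 0.37 ± 0.35 (log2, SE). The Nrf2 gene NFE2L2 (ENSDARG00000042824) read 228.0, 307.6 and 279.4 CPM in lf:Yap, against 287.6, 302.9 and 368.9 CPM in WT livers (-0.235 ± 0.199, SE). Their adjusted p-values were 0.504, 0.788 and 0.749 (edgeR). The gene that fell past the adjusted threshold was nfe2l2b (ENSDARG00000089697). It read 0.560, 0.771 and 0.319 CPM in lf:Yap, against 7.28, 5.39 and 8.24 CPM in WT livers (-3.66 ± 0.40, SE, adjusted p = 0.0146, edgeR). This call was lost on leaving out WT replicate 2 (adjusted p = 0.0526), WT replicate 3 (0.0628) or lf:Yap replicate 1 (0.0706), while the log2 fold change lay between -3.98 and -3.38 in the fits without 1 library.

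In the remaining 4 lists of the pathway 0 genes passed over all genes by edgeR. DESeq2 called 2 higher and 1 lower in the interferon list and limma-voom 1 higher there, and both called 0 in the other lists. Over all tested genes edgeR called 0.665%, and DESeq2 4.18% and limma-voom 0.754% of those they tested. Without adjustment (p under 0.05), edgeR put 6.12% of all tested genes higher and 5.2% lower. By direction alone, 11551 of the 24674 genes lay above 0 and 13123 below. Of 17 ubiquitin genes and activating or conjugating enzymes, 1 was higher and 0 lower by edgeR without adjustment (p under 0.05). That gene, ube2r2 (ENSDARG00000058740), a ubiquitin-conjugating enzyme, differed by 0.62 ± 0.21 (log2, SE; adjusted p = 0.33, edgeR). Of 12 genes around the segregase p97, which hands substrates to the proteasome, 8 lay above 0, and SYVN1 (ENSDARG00000017842), an endoplasmic reticulum ubiquitin ligase, had the lowest p (0.36 ± 0.22; adjusted p = 0.61, edgeR). Their summed level, 324.5, 271.2 and 266.9 CPM in lf:Yap, against 246.8, 225.9 and 337.2 CPM in WT livers, was highest in the same libraries as that of the regulatory particle. Of 16 genes of antigen peptide loading, 12 lay below 0, and at an unadjusted p under 0.05 there were 1 higher and 1 lower. The list's median was -0.25, and 0.06 in the fit without WT replicate 1. The gene with the lowest p among them lay in the other direction: mhc1zba (ENSDARG00000036588), a class I gene, read 217.0, 252.9 and 221.7 CPM in lf:Yap, against 101.3, 78.7 and 187.3 CPM in WT livers (0.91 ± 0.33; adjusted p = 0.356, edgeR). In the interferon list, edgeR without adjustment put 2 genes higher and 3 lower (p under 0.05). The log2 fold changes of this list ran from -1.63 to 4.42. Their median was 0.02, and lay between -0.29 and 0.04 in the fits without 1 library. There ifngr1 (ENSDARG00000074771), for a receptor chain of interferon gamma, read 7.19, 5.92 and 5.54 CPM in lf:Yap, against 0.593, 0.212 and 0.069 CPM in WT livers. Its groups lay far apart (4.42 ± 0.71, SE), and the adjusted p was 0.0511 by edgeR and 9.48e-10 by DESeq2. Over the other settings and the fits without 1 library the adjusted p of ifngr1 lay between 0.021 and 0.234.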

How the data were processed

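The submitters' processing notes name STAR 2.3.0e and HTSeq 0.6.0. The deposited table holds raw, unnormalized counts of reads per Ensembl gene. Its lowest row sum over all libraries is 30, so it has no row for genes with fewer reads. The build, the annotation and the strand setting of the authors are not stated in these sources. Gene symbols came from a table that matched 17999 of 25640 IDs, many in human-style capitals, so IDs are given. It pairs 58 IDs with symbols of the rule, of which 7 (PSMA1, PSMB11, both of PSMD2, PSMD4, PSMD7 and PSMG3) have no row in the count table. The groups by role lack these genes.

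The test was edgeR 4.0.16's, run in R 4.3.3 (filterByExpr, TMM, robust quasi-likelihood, two-sided, Benjamini-Hochberg at 0.05 over all 24674 genes tested). CPM use TMM-scaled library sizes. The SE is the log2 fold change divided by the square root of F. An exact permutation of 3 against 3 libraries cannot give a p under 0.1, so none was run. Replicates differed far beyond sampling noise (chi-square per degree of freedom 201 to 359), so none was counted as a repeat. The procedure was tested on simulated data. Alternatives were DESeq2 1.42.0, limma-voom 3.58.1, RLE scaling, other filters, a replicate block and leaving out each library.

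Members and lists were chosen with earlier results of these data known. Full values were given for members with an unadjusted p under 0.05, immune and constitutive catalytic subunits, the largest difference in each role, and list genes that passed or had the lowest p; others named were chosen after their values were seen. PSMC3IP was taken out of the associated list. Coding lengths were not used here, so levels are not compared between genes and ratios use raw counts.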

Additional observations from a re-analysis of the deposited data

How the results depend on the processing

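The number of proteasome genes past the threshold was 0 in every alternative run. The medians moved by less than the spread between replicates. Leaving out 1 of 3 libraries can hardly move a median by more than that spread, so this does not show that the medians were stable. The median of all tested members, -0.089 with all libraries, turned to 0.122 on leaving out WT replicate 3 and to 0.017 on leaving out lf:Yap replicate 3. In the same fits that of the 44 others, -0.061 with all libraries, turned to 0.146 and 0.035. The median of the immune group lay between -1.41 and -0.56 without 1 library. Over all genes 164 were called, against 1066 by DESeq2, 17 with the replicate block and 32 to 94 without 1 library. The count of proteasome genes lower at an unadjusted p under 0.05 was 5, against 1 with the replicate block and 0 to 5 without 1 library. This count and the medians of the immune group and of the other genes were chosen after seeing the data. Same-numbered libraries deviated from their group means with correlations of 0.15, 0.17 and -0.30, and libraries with different numbers with -0.348 to 0.232. With 3 libraries per group such values cannot decide whether the numbers mark pairs, and the labels do not say. With psmb12 and psmb13a counted in, the immune to constitutive ratio averaged 0.968 in lf:Yap and 2.3 in WT livers; the main means were 0.578 and 1.39, and 0.495 to 0.668 in lf:Yap and 0.88 to 1.81 in WT livers without 1 library. Division by coding length was not run. Leaving out 1 library turned the direction of 33 of the 44 other members: 6 of 9 alpha, 7 of 7 constitutive beta, 5 of 7 ATPase, 7 of 10 non-ATPase, 5 of 6 activator or inhibitor and 3 of 5 chaperone genes. The most turned without WT replicate 3 (16) and the fewest without lf:Yap replicate 2 (5). Among members chosen for full values the direction turned for PSMB6 at -0.017 with the filter of 5 CPM in 3 libraries, and, without 1 library, for PSMB5 (-0.028 to 0.50), PSMB6 (-0.024 to 0.091), PSMB7 (-0.087 to 0.34) and PSME2 (-0.58 to 0.10). None of these was called, and the cause was not tested. With the replicate block zfand5b and nfe2l2b had adjusted p-values of 0.101 and 0.0947. ifngr1 passed by limma-voom (0.021), with the 5 CPM filter (0.0401) and without WT replicate 1 (0.0325).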
